A study of Mus musculus with 12 samples.

Results

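Cytosolic ribosomal protein genes encode the protein subunits of the ribosomes that translate nuclear messages. They were followed here in regulatory T cells (Treg) sorted from mouse tumours and spleens. Members were taken by name: any array gene symbol of Rpl or Rps followed by a number, or Rplp0, Rplp1, Rplp2 or Rpsa, with the S6 kinase names (Rps6k) left out. Each gene was read from its brightest probe, kept when 3 or more arrays showed it well above background. Of 82 names on the array, 81 were kept, among 15514 genes and unnamed transcripts tested in all. The one name outside was Rpl3l, a paralog of Rpl3, well above background on 0 arrays. All 81 kept probes were well above background on all 12 arrays, so the filter removed no gene for being low in 1 group. By name the 81 comprised 42 large subunit proteins, 31 small subunit proteins, 3 proteins of the ribosomal stalk, 4 paralogs outside the standard set (Rpl7l1, Rpl22l1, Rpl36al and Rps27l) and 1 gene that is no ribosomal protein, Rps19bp1, which encodes a binding partner of Rps19.

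The study profiled 4 groups of 3 arrays, and the labels give 3 experiments for each group. IL10+ and IL10- tumour Treg came from VERT-X C57BL/6 mice, which carry an IL-10EGFP reporter. Total tumour Treg came from FoxP3-EGFP C57BL/6 mice. Both strains bore subcutaneous MC38 colon carcinomas, from a transplantable mouse line, and the tumours were pooled before sorting. Spleen Treg came from FoxP3-EGFP C57BL/6 mice without tumours. All cells were sorted as CD45+, CD11b low, CD3+ CD4+ cells. Treg were then taken by EGFP in FoxP3-EGFP mice but by CD25 and CD120b in VERT-X mice, so that strain and gate changed together. No age was given in the labels used here. A level below is the log2 of an array's processed probe signal minus the log2 of that array's 75th percentile, and a difference is between group means of such levels. Differences were tested with limma over all features (Benjamini-Hochberg), and rose, fell and called refer to an adjusted p below 0.05.

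The T cell genes Cd3d, Cd3e, Cd3g, Cd4, Cd5 and Lck were well above background on all 12 arrays. The Foxp3 probe was well above background on all VERT-X arrays and on none of the FoxP3-EGFP arrays, where whether the reporter allele still holds the probed sequence was not tested. Of the other Treg genes, Ctla4, Ikzf2 and Tnfrsf18 were well above background on all 12 arrays, and Il2ra on all but 1. Spleen array 2 stood apart from the other spleen arrays in these genes. Ctla4 stood at 3.12, -0.89 and 3.29 on spleen arrays 1 to 3 and Ikzf2 at 3.12, -1.23 and 3.27, so the main result below is also given without spleen array 2. The 75th percentile signal ranged from 92.3 on IL10+ array 3 to 606 on IL10+ array 1. The 3 spleen arrays shared a slide with total tumour array 3, while total tumour arrays 1 and 2 were on another slide with IL10+ array 1. The 3 IL10- arrays shared a slide with IL10+ array 2, and IL10+ array 3 was alone on the fourth. The first 2 slides were scanned on 1 day and the others on another.

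A cytosolic ribosome consists of a small subunit, which reads the message, and a large subunit, which joins the amino acids. Most of its proteins are needed in equal numbers, and T cells enlarge this machinery when they are activated. Messages for these proteins typically begin with a C followed by a run of pyrimidines, the terminal oligopyrimidine (TOP) tract, through which mTOR signalling and the protein Larp1 control their translation. An array measures message level and not translation. Ribosomal protein genes also have many near-identical processed copies in the mouse genome, so a probe may read a copy as well as its gene. For Rpl15 the array placed the probe on chromosome 12 (mm8) whereas RefSeq places the gene on 14.

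The annotated transcript starts of RefSeq (GRCm38.p6) were searched for a TOP tract, on the transcript's own strand only. The motif was a C at the first transcribed base followed by at least 4 bases that were each C or T. Of the 81 genes, 61 had a promoter entry under their symbol, and 13 of these (21.3%) had such a start, against 813 of 27025 mouse genes (3.01%). Within the window from 10 bases before to 15 bases from the start, the same pattern occurred in 57.4% of the matched genes and in 34.4% of all genes. The 5 starts shown are those of Rps27 and Rps27l, whose messages went in opposite directions between tissues, and of Rps6, Rplp2 and Rpl35a. These last are the S6 kinase substrate, a stalk gene and a large subunit gene. All but that of Rps27l hold the motif, whereas most matched genes do not, so they do not stand for their groups. Rplp0, also of the stalk, had no such start. Each line gives 15 bases before and 15 bases from an annotated start, and capitals mark the TOP tract.
Rps27 (chr3:90213634-90213663, minus strand): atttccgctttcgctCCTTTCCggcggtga
Rps6 (chr4:86857353-86857382, minus strand): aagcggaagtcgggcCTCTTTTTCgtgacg
Rplp2 (chr7:141447636-141447665, plus strand): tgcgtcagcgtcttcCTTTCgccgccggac
Rpl35a (chr16:33056467-33056496, plus strand): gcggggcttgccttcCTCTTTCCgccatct
Rps27l (chr9:66946071-66946100, plus strand): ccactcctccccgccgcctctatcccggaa
Rps27 and Rps6 begin directly with the tract, as do Rplp2 and 1 of the 3 annotated starts of Rpl35a. Neither annotated start of Rps27l holds the motif, and this says only that those letters are not at these positions.

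Ribosomal protein messages were lower in total tumour Treg than in spleen Treg. The median level of the 81 genes was 8.82, 9.19 and 8.75 on the 3 spleen arrays and 8.35, 8.28 and 8.48 on the 3 total tumour arrays. It was 8.40, 8.23 and 8.27 on the IL10- arrays and 8.23, 8.06 and 8.35 on the IL10+ arrays. Every spleen array thus stood above every tumour array, whichever the strain and gate. Spleen array 2 was the highest of the 12 for 76 of the 81 genes, and IL10+ array 2 was the lowest for 56. The median of all features stayed between 0.03 and 0.09 on the 12 arrays. Between arrays of a group, the median SD of a member was 0.255 in spleen, 0.111 in total tumour, 0.102 in IL10- and 0.276 in IL10+.

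**Figure D1:**
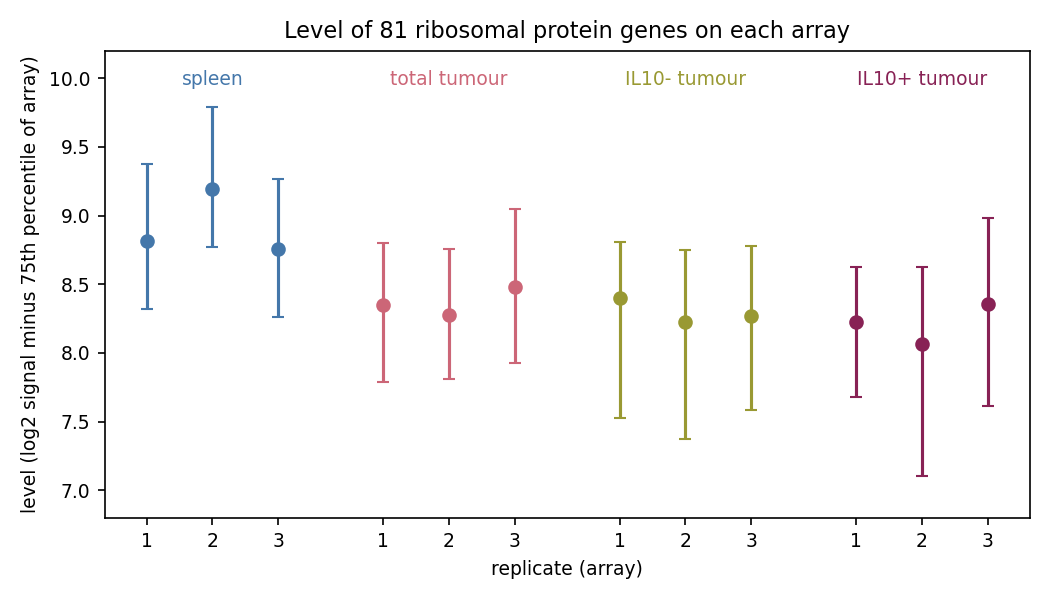
Level of the 81 ribosomal protein genes on each of the 12 arrays (log2 signal minus the array's 75th percentile), with the median over genes as a point and the interquartile range over genes as a bar. The 3 spleen medians, from 8.75 to 9.19, lie above the 9 tumour medians, from 8.06 to 8.48.

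The comparison of total tumour with spleen Treg held the reporter and gate the same and differed in tissue and in the presence of a tumour. Of the 81 genes, 49 were called lower in tumour (60.5%), 1 was called higher and 31 were not called. Over all features, 20.2% were called lower and 22.0% higher, so the share of ribosomal protein genes called lower was above that of features at large. The 2 sets were not matched for brightness: 63 of the 81 genes were in the brightest 1% of features and 75 in the brightest 5%. The median difference of the 81 was -0.56, or 1.47-fold lower, with a range from -1.09 to 1.05, whereas the median over all features was -0.01. In sign, 78 differences were negative and 3 positive. For 73 genes all 3 tumour arrays lay below all 3 spleen arrays, a pattern seen in 33.3% of all features. The shifts were small, and Rps27 was the only gene called lower by at least 2-fold. In these sorted pools, fewer cells of a type and less RNA per cell cannot be told apart.

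The median difference was smaller under quantile normalization, at -0.29, and with normexp background correction followed by quantile normalization, at -0.26. These gave 19 and 30 members called lower (23.5% and 37.0%), against 19.1% and 21.1% of all features under the same settings. Other alternatives changed the calls more than the size. Scaling to the median of each array gave a median of -0.63 with 3 called lower (3.7%, against 11% of all features). Testing without the filter on dim probes gave -0.56 with 14 called lower (17.3% against 7.98%). Slide as a block gave -0.45 with 2 called lower (2.47% against 9.66%), so the share of members called lower was below that of all features in this setting and under median scaling. The blocked value rests on total tumour array 3 alone, which shared the spleen slide, and 3 of its 81 differences were positive. Without spleen array 2 the median was -0.43 with 21 genes called lower (25.9% against 16.1%). Without total tumour array 1 it was -0.54 with 25 called lower (30.9% against 15.2%). Removing total tumour array 2 instead gave -0.53 with 19 called lower (23.5% against 14.8%). At least 70 of the 81 differences were negative under every setting run.

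**Figure D2:**
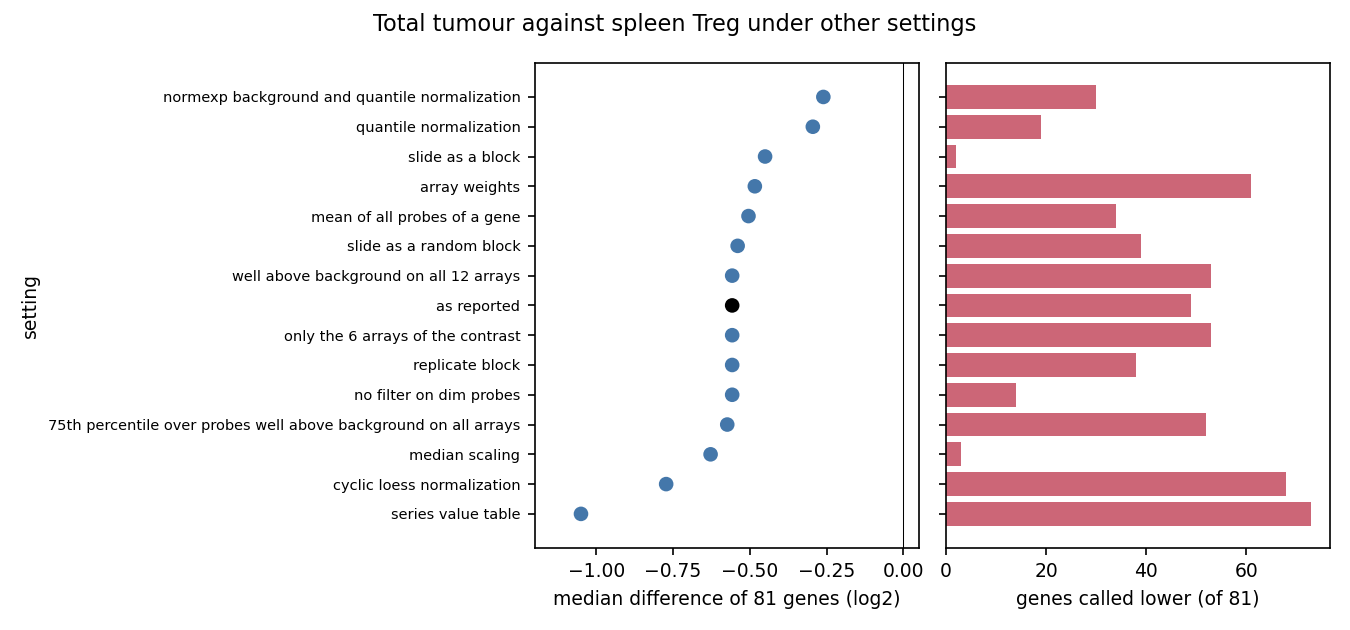
Total tumour against spleen Treg under the reported setting (black) and the alternatives that change 1 processing choice. The left panel gives the median difference of the 81 genes (log2), and the right panel the number called lower at an adjusted p under 0.05. The median stays below 0 in each, from -1.05 to -0.26, while the count ranges from 2 to 73. The 2 came with slide as a block (9.66% of all features lower) and the 73 with the series value table (20%).

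Transcripts of other cells differed between the same groups. All 8 B cell genes fell in tumour, with a mean level per array from 2.04 to 2.84 in spleen and from -3.38 to -3.08 in total tumour. All 3 erythroid genes measured also fell, from between 2.48 and 4.27 to between -4.98 and -2.85. All 10 macrophage and monocyte genes rose, from between 0.48 and 1.64 to between 3.69 and 4.60, and all 6 fibroblast genes rose, from between -4.97 and -2.37 to between 2.00 and 2.50. Cd79a, Blk and Pax5 of the B cell list, and Alas2 of the erythroid list, were well above background on all 3 spleen arrays and on 0 total tumour arrays. None of the 6 T cell genes was called, at a median difference of -0.29. The part of these transcripts in the ribosomal protein difference was not tested.

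Among small subunit proteins, 24 of 31 fell (77.4%, against 20.2% of all features) and none rose, at a median difference of -0.66. Rps27, a zinc-binding protein of the small subunit, had the largest fall. Its probe lies on chromosome 3, from 90298596 to 90298655 (mm8). Its level was 9.97, 10.34 and 9.80 on the spleen arrays, 9.0, 8.73 and 9.12 on the total tumour arrays, 8.80, 8.80 and 8.77 on the IL10- arrays and 8.61, 8.83 and 8.87 on the IL10+ arrays. The lowest spleen array exceeded the highest of the 9 tumour arrays. The fall in total tumour was 2.12-fold (log2 difference -1.09 ± 0.17 SE, adjusted p 0.00075), and it was called under all 27 alternatives run.

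Rps19 and Rps24, both mutated in human Diamond-Blackfan anaemia, also fell. Rps19 stood at 8.93, 9.41 and 8.84 in spleen and at 8.05, 7.96 and 8.31 in total tumour, a difference of -0.96 ± 0.21 (SE, adjusted p 0.0055). A second Rps19 probe that was well above background on all 12 arrays gave -0.90. Rps24 stood at 9.28, 9.76 and 9.15 in spleen and at 8.56, 8.42 and 8.64 in total tumour (difference -0.86 ± 0.17, adjusted p 0.0026). Of its other probes, one gave -0.88 and one 0.51, so the probes of Rps24 disagreed in sign. For the chosen probes of both genes the groups were separate, and spleen array 2 was the highest array.

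Other small subunit genes called lower included Rps7 (-0.83), Rps29 (-0.79), Rps28 (-0.76) and Rps9 (-0.73), down to Rps4x and Rps23 (each -0.57). The 7 not called were Rps13, Rpsa, Rps6, Rps26, Rps27a, Rps12 and Rps2. Rps6, the protein that S6 kinases phosphorylate downstream of mTOR, stood at 7.08, 7.60 and 7.02 in spleen and at 6.85, 6.82 and 6.90 in total tumour. Its difference of -0.37 ± 0.26 (SE) was not called (adjusted p 0.28), with a 95% interval from -0.96 to 0.21. A second, far dimmer Rps6 probe, well above background on 6 arrays, gave 1.32 and was not called, so the probes of Rps6 disagreed in sign. Rpsa, also known as the laminin receptor precursor, differed by -0.38 ± 0.17 (adjusted p 0.105). Rps2 differed by -0.11 and Rps12 by -0.18, the values nearest to 0 in this group.

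Among large subunit proteins, 22 of 42 fell (52.4%, against 20.2% of all features) and none rose, at a median difference of -0.51. Rpl35a stood at 8.41, 8.93 and 8.32 in spleen and at 7.70, 7.68 and 7.74 in total tumour, and the difference was -0.85 ± 0.19 (SE, adjusted p 0.0052). Rpl31 stood at 2.48, 3.0 and 2.41 in spleen and at 1.59, 1.86 and 1.88 in total tumour (difference -0.85 ± 0.24, adjusted p 0.0175). Both are mutated in some families with Diamond-Blackfan anaemia, and neither overlapped between the groups. The other Rpl35a probes, both far dimmer, gave 0.12 and -1.14, so the probes of this gene disagreed in sign. A second probe of Rpl31 differed by -0.45 and was not called.

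Rpl5 and Rpl11, which bind Mdm2 when ribosome assembly fails, both fell. Rpl5 stood at 8.90, 9.46 and 8.85 in spleen and at 8.34, 8.27 and 8.45 in total tumour, with a difference of -0.71 ± 0.17 (SE, adjusted p 0.0075). Rpl11 stood at 8.65, 8.96 and 8.59 in spleen and at 8.31, 8.21 and 8.41 in total tumour, with a difference of -0.42 ± 0.15 (adjusted p 0.0473). The Rpl11 call was lost under 17 of the 27 alternatives, and that of Rpl5 under 3. Rpl22, which mouse αβ T cells need to develop, fell by 0.53 on the log2 scale (SE 0.18, adjusted p 0.039), a call lost under 12.

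The remaining large subunit genes called lower included Rpl18 (-0.73), Rpl13a (-0.72) and Rpl12 (-0.72), down to Rpl19 (-0.44). Among those not called, Rpl21 was the only one with a positive difference. Its level was 0.00, -0.12 and -0.25 in spleen and 0.20, 0.22 and 0.16 in total tumour, which did not overlap, yet the difference of 0.32 ± 0.24 (SE) was not called (adjusted p 0.322). A second Rpl21 probe differed by -0.39, so the probes of this gene disagreed in sign. Rpl41, the shortest of the ribosomal proteins, differed by -0.18 and overlapped between groups.

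The stalk of the large subunit, built from Rplp0, Rplp1 and Rplp2, recruits the elongation factors. Rplp1 stood at 9.83, 10.26 and 9.64 in spleen and at 9.23, 9.23 and 9.41 in total tumour, a difference of -0.62 ± 0.18 (SE, adjusted p 0.022). Rplp2 stood at 9.51, 9.84 and 9.35 in spleen and at 8.96, 8.95 and 9.18 in total tumour (difference -0.53 ± 0.19, adjusted p 0.043). Both fell, although the calls were lost under 8 and 16 of the 27 alternatives. Rplp0, the scaffold of the stalk and a common reference gene, stood at 7.18, 7.82 and 7.17 in spleen and at 6.93, 6.95 and 7.04 in total tumour. Its difference of -0.41 ± 0.20 was not called (adjusted p 0.12).

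**Figure D3:**
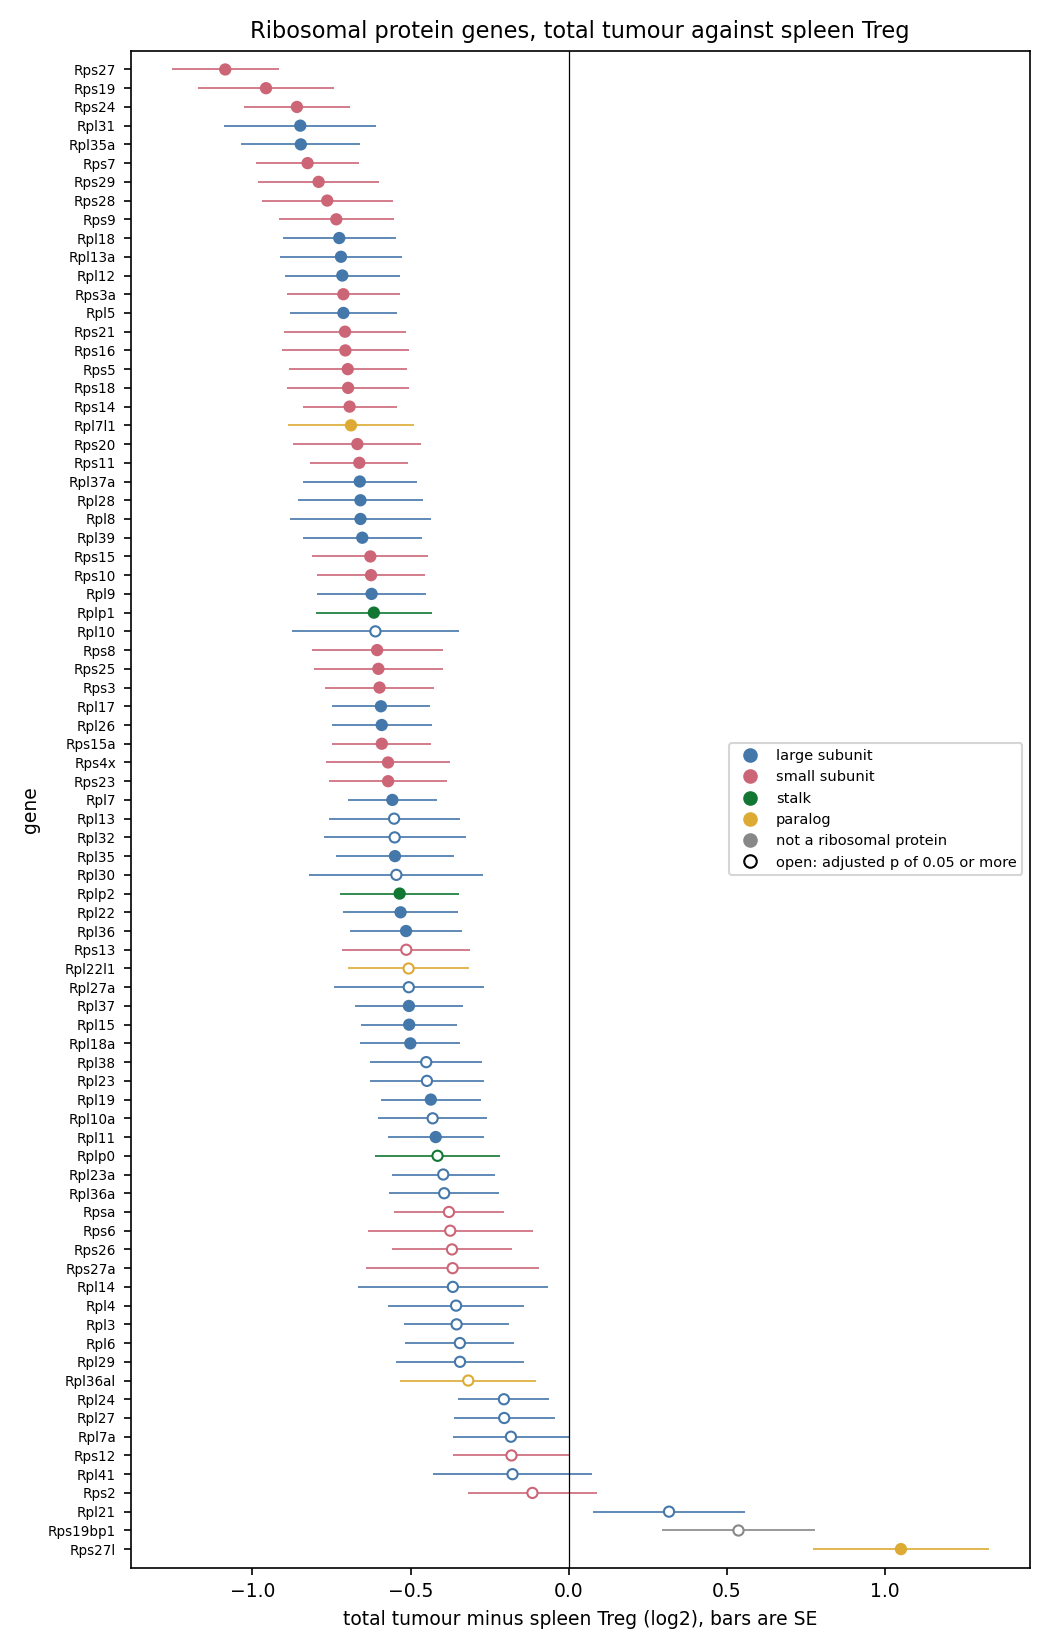
Difference between total tumour and spleen Treg (log2, bars are SE) for the ribosomal protein genes reported here, ordered by size and coloured by role, with open circles for genes not called. Rps27 stands at -1.09 at one end and its paralog Rps27l at 1.05 at the other, and 3 points lie above 0.

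Rps27l, the paralog of Rps27 and a known target of p53, was the only member that rose. Its probe spans 66746823 to 66748513 on chromosome 9 (mm8). Its level was 5.10, 4.57 and 4.96 on the spleen arrays, 5.72, 6.05 and 6.00 on the total tumour arrays, 6.34, 5.47 and 5.59 on the IL10- arrays and 6.20, 5.38 and 5.79 on the IL10+ arrays. Every tumour array exceeded every spleen array, and spleen array 2, the highest for most members, was here the lowest. The rise in total tumour was 2.07-fold (log2 difference 1.05 ± 0.28 SE, adjusted p 0.013). The call was lost under median scaling, with the series value table and with slide as a block (adjusted p 0.0876, 0.0512 and 0.0811).

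On the chosen probes, the differences of the other 3 paralogs had the sign of those of their standard genes. Rpl7l1 stood at 3.02, 3.13 and 3.08 in spleen and at 2.13, 2.51 and 2.53 in total tumour and fell by 0.69 on the log2 scale (SE 0.20, adjusted p 0.019), beside -0.56 for Rpl7. A second Rpl7l1 probe gave 0.14, opposite in sign. Rpl22l1 differed by -0.51 ± 0.19 and was not called (adjusted p 0.057), beside -0.53 for Rpl22. Rpl36al differed by -0.32 ± 0.21 (adjusted p 0.264) and Rpl36a by -0.39 (adjusted p 0.095), neither of them called. Rps19bp1 stood at 2.94, 2.93 and 2.84 in spleen and at 3.24, 3.53 and 3.55 in total tumour. Its difference of 0.54 ± 0.24 was positive, unlike that of Rps19, but it was not called (adjusted p 0.102).

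**Figure D4:**
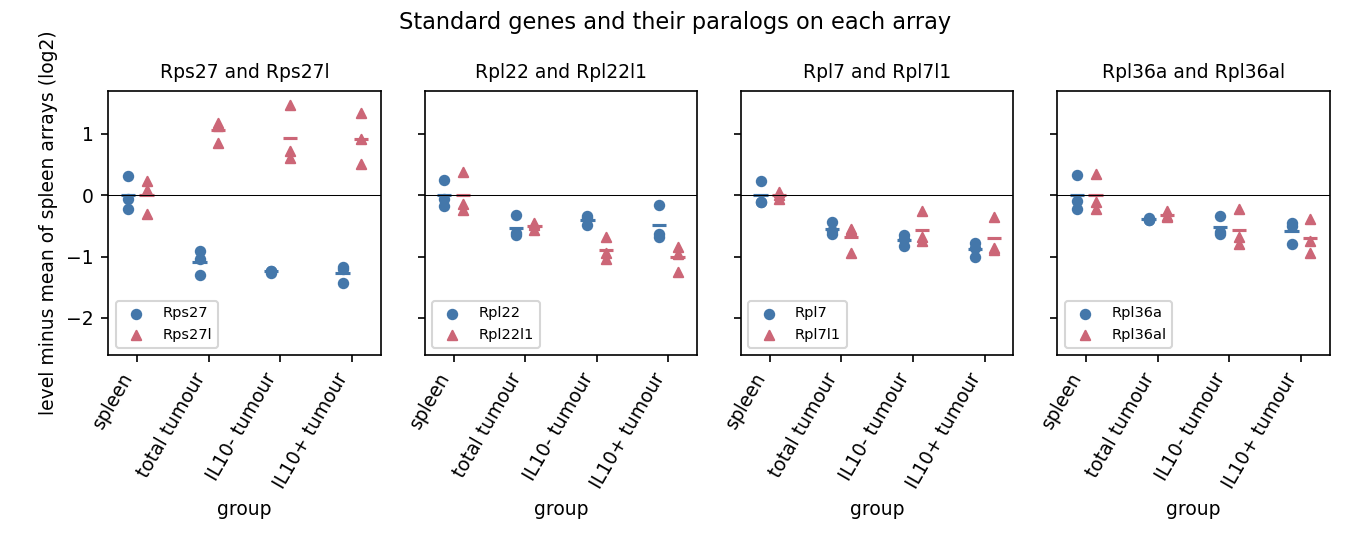
Level of 4 standard genes (circles) and their paralogs (triangles) on each array, minus the mean of that gene's 3 spleen arrays (log2), with dashes for group means. Rps27 lies below its spleen arrays and Rps27l above them on all 9 tumour arrays, while the means of the other 3 pairs lie below 0 in each tumour group.

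The lower level was not limited to 1 tumour population in sign. For 59 of the 81 genes all 9 tumour arrays lay below all 3 spleen arrays, as did 23.7% of all features. Counted by group, this held for 73 genes in total tumour (33.3% of all features), 68 in IL10- and 66 in IL10+ Treg. For the IL10- and IL10+ groups the share of all features was not counted, so those counts have no background beside them. The IL10- and IL10+ groups differ from spleen in strain, gate and slide as well as tissue, and these effects cannot be told apart.

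The dimmer probes of the same genes, set aside by the rule, were read as a check. Of 52 such probes for 40 genes, 37 had negative differences between total tumour and spleen, 6 were called lower and 0 higher. These calls came from a fit over all probes without the filter on dim probes. The share of all probes called lower in that fit was not counted, so the 6 calls cannot be set against it. The median of the 52 probes was -0.36, against -0.52 for the chosen probes of these genes.

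Of the matched genes with a TOP start, 10 were among the 36 matched genes called lower and 3 among the 24 not called. Fau, a ribosomal protein made as a fusion with a ubiquitin-like protein and left out by the naming rule, differed by -0.41 ± 0.18 (SE) and was not called (adjusted p 0.0973). Rack1, a scaffold bound to the ribosome, also differed by -0.41 ± 0.18 and was not called (adjusted p 0.0888). The 18 other TOP genes and elongation factors had a median difference of -0.17. Of these, 1 rose (5.56%, against 22.0% of all features) and 2 fell (11.1%, against 20.2% of all features). Those were Hnrnpa1, an RNA-binding protein (0.62 ± 0.15, adjusted p 0.0092), Eif4b, a helicase cofactor of initiation (-0.68 ± 0.19, adjusted p 0.0158), and Eef1b2, an exchange factor for elongation (-0.61 ± 0.19, adjusted p 0.0248).

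In other parts of the translation machinery some genes rose and some fell, to be read beside the 22.0% of all features called higher and the 20.2% called lower. Of 52 initiation factor genes and their inhibitors, 9 rose (17.3%) and 6 fell (11.5%), at a median difference of -0.03. Some of them, Eif4b included, were also counted among the other TOP genes above. Eif4ebp1, the mTOR-regulated inhibitor of the cap-binding protein, rose from 2.47 ± 0.37 in spleen to 5.03 ± 0.23 in total tumour (SD, n = 3, limma adjusted p 0.00011). Eif1a, a factor of start codon scanning, rose by 0.72 ± 0.12 (SE), while Eif1b fell by 0.71 on the log2 scale. Of 57 ribosome biogenesis genes, 3 rose (5.26%) and 11 fell (19.3%), at a median of -0.16. Taf1a and Taf1c, subunits of the RNA polymerase I selectivity factor, fell by 0.97 and 1.35 on the log2 scale.

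Of 78 mitochondrial ribosomal proteins, which build a separate ribosome, 9 rose (11.5%) and 4 fell (5.13%), at a median of 0.12. Mrpl54 rose by 0.73 and Mrpl33 by 0.67, whereas Mrpl24 fell by 0.57 on the log2 scale. Of 24 regulators of ribosomal protein output, 6 rose (25%) and 8 fell (33.3%). Mxd1 and Mxi1, which pair with Max in opposition to Myc, rose by 3.50 ± 0.34 and 2.11 ± 0.20 (SE), and Sesn3, a sestrin that restrains mTORC1, fell by 2.29 on the log2 scale (SE 0.18). Myc itself differed by -0.03 and was not called (adjusted p 0.926).

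**Figure D5:**
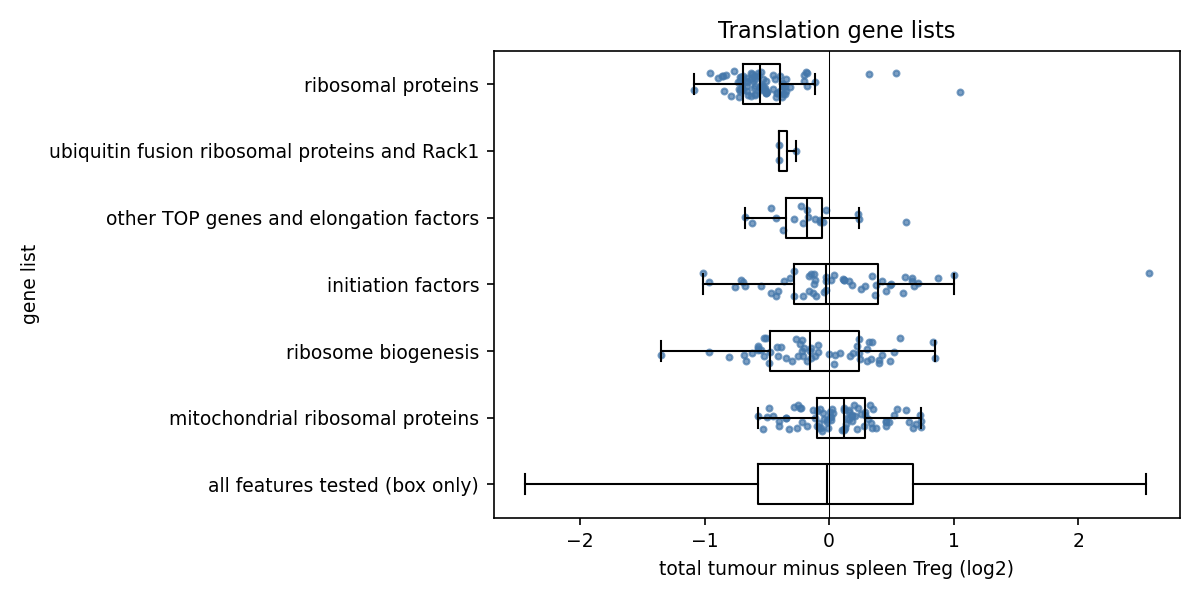
Differences between total tumour and spleen Treg (log2) for the 81 ribosomal protein genes, 5 related lists and all features tested, with boxes for the quartiles, whiskers to the last value within 1.5 interquartile ranges and points for genes. The ribosomal protein box lies below 0, with a median of -0.56, while the mitochondrial ribosomal proteins centre on 0.12 and all features on -0.01.

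The 10 features outside the family that followed the mean member level most closely over the 12 arrays are given as a description. The closest were LOC633908 (Pearson r 0.993), an unnamed transcript (0.986) and Krtap4-6 (0.978). Further down were Rack1 (0.975), the mitochondrial ribosomal protein Mrps26 (0.971), Eef1b2 (0.971) and Suclg1, a subunit of succinyl-CoA ligase (0.969). The arrays behind these values share slides and scan days.

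IL10+ and IL10- Treg of the same VERT-X tumours were compared to ask whether cells expressing the Il10 reporter differ from the rest. Neither direction held a called member: 0 of 81 had an adjusted p under 0.05, and 0 had an unadjusted p under 0.05. Over all features, 0.0516% were called and 4.63% had an unadjusted p under 0.05. The median difference of the members was -0.09, beside -0.04 for all features, with 67 negative and 14 positive values. The groups were separate for 2 members, against 7.41% of all features. The 95% interval of every member lay inside a 2-fold change either way, with bounds from -0.98 to 0.73.

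The differences farthest from 0 were those of Rpl14 (-0.31 ± 0.30 SE), Rpl31 (-0.30 ± 0.24) and Rpl10a (-0.26 ± 0.17) on one side, and Rpl30 (0.12 ± 0.27), Rpl41 (0.10 ± 0.25) and Rps4x (0.09 ± 0.20) on the other. Rpl14, among the dimmest members, stood at 2.12, 1.17 and 1.41 on the IL10- arrays and at 1.84, 0.78 and 1.15 on the IL10+ arrays. The groups thus overlapped, although in each same-numbered pair the IL10+ array was the lower. Rpl5 was 1 of the 2 members with separate groups, at 8.41, 8.32 and 8.42 against 8.23, 8.11 and 8.28, a difference of -0.18 ± 0.17 (adjusted p 1). Rps27 differed by -0.02 and Rps27l by -0.01. The 3 stalk genes differed by -0.21 to 0.04. On the one slide with both groups, which held 3 IL10- arrays and IL10+ array 2, the median difference of the members was -0.28. The median of all features there was -0.04, and 2 of the 81 member values were positive. IL10+ array 2 was also the lowest array for 56 members.

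The 10 macrophage and monocyte genes were all higher in IL10+ in sign, with none called and a median difference of 0.42. Their mean level per array ran from 4.26 to 4.78 in IL10+ and from 3.80 to 4.36 in IL10-. The part of these transcripts in the member values was not tested.

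Both VERT-X fractions were also set against total tumour Treg, which share those total tumour arrays as controls and differ from them in reporter strain and gate. Of the IL10+ differences, 0 members were called and 5 had an unadjusted p under 0.05, while 0.193% and 16.8% of all features did. The median was -0.18, beside -0.04 for all features. Of the IL10- differences, 0 members were called and 4 had an unadjusted p under 0.05, against 0.148% and 15.5% of all features. Here the median was -0.07, beside 0.00 for all features. The intervals of 76 members for IL10+ and 77 for IL10- lay inside 2-fold either way. Groups were separate for 17 and 22 members, or in 23.1% and 27.7% of all features.

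Rps6 had the lowest value in both comparisons. It stood at 6.85, 6.82 and 6.90 in total tumour, at 6.43, 6.08 and 6.25 in IL10- and at 6.73, 5.65 and 6.27 in IL10+ Treg. The difference was -0.64 ± 0.26 (SE, adjusted p 0.255) for IL10+ and -0.60 ± 0.26 (adjusted p 0.306) for IL10-, and neither was called although the arrays did not overlap. The dimmer second Rps6 probe gave -0.02 for IL10+ and -0.22 for IL10-.

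Rpl21 had the highest value in both. It stood at 0.20, 0.22 and 0.16 in total tumour, at 0.51, 1.13 and 1.23 in IL10- and at 0.22, 0.95 and 0.98 in IL10+ Treg. The difference was 0.76 ± 0.24 (adjusted p 0.177) for IL10- and 0.52 ± 0.24 (adjusted p 0.307) for IL10+, again not called. The second Rpl21 probe gave -0.08 for IL10- and -0.05 for IL10+, so the probes differed in sign here too. IL10- array 1 and IL10+ array 1 were the lowest of their groups for this gene.

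Other low values were those of Rps27a, a ubiquitin fusion (-0.51 ± 0.27), and Rpl14 (-0.59 ± 0.30) for IL10+, and of Rpl30 (-0.60 ± 0.27) and Rps4x (-0.51 ± 0.20) for IL10-. Other high values were those of Rpl13 (0.19 ± 0.21) and Rpl8 (0.14 ± 0.22) for IL10+, and of Rpl32 (0.22 ± 0.22) and Rpl8 (0.21 ± 0.22) for IL10-. None passed the test. IL10+ array 1 and total tumour arrays 1 and 2 shared a slide, on which the median difference was -0.10, equal to that of all features. No slide held both IL10- and total tumour arrays. With slide as a block the 2 groups were linked only through the IL10+ arrays, and the median then was 0.18 in place of -0.07.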

How the data were processed

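Total RNA of sorted cells was hybridised to 12 Agilent 1-colour arrays. Per the file headers, the authors scanned them with Agilent Feature Extraction 9.5.3.1, which gave background-subtracted, detrended signal intensity per spot, with probes placed on mm8. The deposited series table holds log10 values with a median of 1.33 on every array; it correlated with the scanner signal at r of 0.995 or above, how it was normalized is not stated in the sources, and it served as an alternative. From the intensities, control and outlier-flagged spots were left out and log2 was taken per spot. The log2 values of a probe's spots were averaged and each array's 75th percentile was subtracted. Genes were named by accession through RefSeq where it matched (23374 of 41174 probes), by symbol (6733) or synonym (2919), and otherwise kept the file's name (8148). The brightest probe stood for a gene. Features well above background on at least 3 arrays (15514) were fitted with limma 3.58.1 in R 4.3.3 (lmFit, eBayes, no covariate, all 12 arrays), two-sided, with Benjamini-Hochberg adjustment over all features of a comparison. No member was saturated on any array.

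The members and lists were chosen with earlier results of these data known. Named were the 6 largest called changes in each direction for total tumour against spleen and for IL10+ against IL10-, the 3 largest in the others, the 3 largest differences where fewer than 3 were called, the stalk genes, Rpsa, Rps6, Rpl5, Rpl11, Rpl22, Rps19, paralogs and Rps19bp1. Others were named after their values were seen, and some genes that these rules name are not reported here. Related lists are described by counts, with up to 4 genes named by smallest p. The scripts were tested on simulated data. The number of arrays limits the precision.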

Additional observations from a re-analysis of the deposited data

How the results depend on the processing

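In total tumour against spleen, 49 members were called lower and 1 higher, at a median of -0.56. Under quantile normalization there were 19 lower and 2 higher (median -0.29). Normexp background correction gave 30 lower and 3 higher (-0.26), and median scaling 3 lower and 0 higher at a median of -0.63. The series value table gave 73 lower and 0 higher (-1.05), and no filter on dim probes 14 lower at an unchanged median. Of all features, quantile normalization called 19.1% lower, normexp 21.1%, median scaling 11% and no filter 7.98%. Slide as a block gave 2 lower and 0 higher (9.66% of all features lower). The 6 arrays of the contrast alone gave 53 lower (65.4%, against 26.6% of all features) and 2 higher. Array weights gave 61 lower (75.3% against 31.1%) and 2 higher, where they called 4922 features higher in all. Cyclic loess, chosen after seeing the data, gave a median of -0.77. Leaving out each array in turn gave 19 to 52 lower, 1 higher and medians from -0.66 to -0.43. The fewest, each from fewer samples, were 19 (total tumour replicate 2 out), 21 (spleen replicate 2 out) and 25 (total tumour replicate 1 out). Of all features, 14.8%, 16.1% and 15.2% were called lower under the same settings. Otherwise the cause was not tested.

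In IL10+ against IL10-, the median of -0.09 became -0.28 with slide as a block. That value rests on IL10+ array 2 alone, the only IL10+ array on the slide of the IL10- arrays. The median was 0.037 under cyclic loess and ran from -0.20 to 0.01 leaving out each array. In IL10+ against total tumour, the median of -0.18 became -0.57 under median scaling, 0.011 with the series value table and -0.032 under cyclic loess, and ran from -0.28 to -0.07. In IL10- against total tumour, the median of -0.07 became -0.45 under median scaling and 0.18 with slide as a block, and ran from -0.12 to -0.01. Median scaling moved the median of all features in these last comparisons to -0.43 and -0.38. Array weights called 1 member higher and 9 lower in IL10- against total tumour, where they called 1560 features higher and 2039 lower in all. Every other setting gave 0 calls in the 3 comparisons among tumour groups.

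The replicate block gave 38 members lower (46.9%, against 19.6% of all features) and 1 higher in total tumour against spleen and 0 in the others. Same-numbered arrays did not deviate together in every pair (correlations from -0.24 to 0.43 over all comparisons). For IL10+ against IL10- the correlations were 0.41, 0.43 and -0.24 for replicates 1 to 3. The numbers were therefore not taken as pairing, and the reported SE and overlap of groups leave any pairing out of account. For named genes over all comparisons, 2977 values under alternatives kept their call or stayed uncalled, 108 lost and 47 gained a call, and 0 reversed. All 108 losses were in total tumour against spleen, since no named gene was called among tumour groups under the reported setting. The 2977 therefore include many values that had no call to lose.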
